A study of Mus musculus with 6 samples.

Results

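The transcription factors of the AP-1 group and the stress-induced regulators that accompany them were followed through 15 probe sets for 10 genes, out of the 45101 probe sets and 18194 named genes on each array. Every probe set whose annotated gene symbol was exactly Fos, Fosb, Fosl2, Jun, Junb, Jund, Atf3, Myc, Gadd45b or Gadd45g was taken. No probe set with several symbols named any of these genes. The samples were epithelium of the mouse gonadal primordium at E10.5 of development, cut out by laser microdissection from fetuses frozen unfixed. Wild-type (+/+) fetuses were compared with fetuses lacking the homeobox gene Emx2 (-/-), with 3 pools in each group and tissue of 3 fetuses in each pool. The labels do not give the mutant allele, the strain or whether pools shared litters, so each p-value reflects only how far pools varied. The comparison addressed how the loss of Emx2 alters transcripts of this epithelium. Xist, the RNA of the inactive X chromosome, was high in every KO pool and low in every wild-type pool, so in all that follows fetal sex cannot be told apart from genotype.

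AP-1 is a dimer of leucine zipper proteins in which a member of the JUN family pairs with another JUN, with a FOS protein or with an ATF protein. Fos, Fosb, Junb and Atf3 are typical immediate early genes, transcribed within minutes of a growth factor or stress signal and silent at rest, while Jund is usually expressed without a stimulus. MYC, which binds DNA together with MAX, and the GADD45 proteins, which bind and activate the kinase MAP3K4, respond to many of the same signals. In the mouse gonad, GADD45G acting through MAP3K4 and p38 kinases is needed for timely expression of Sry.

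Jund at its only tested probe set, Jun at 1 of 2 and Gadd45b at 2 of 3 passed the test as lower in Emx2 KO epithelium. Myc and 1 of 2 probe sets of Fosl2 passed as higher. Only the call of Jund held with any 1 pool left out. Jund fell to 64.5% of the wild-type mean and Jun to 59.0% at the probe set that passed the test. Gadd45b fell to 51.5% and 59.2% at 2 probe sets. Myc rose 1.99-fold and Fosl2 1.45-fold. The immediate early genes Fos and Atf3 did not pass the test, and the probe sets of Fosb and Junb were too dim to be tested.

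Of the 15 probe sets, 12 passed a filter on low signal that used all 6 arrays regardless of group, and they covered 8 of the 10 genes. In limma's moderated test, 6 of these 12 passed an adjusted p of 0.05, 2 higher and 4 lower in KO. Over all 27022 probe sets tested, 4.68% passed, 2.75% higher and 1.93% lower. The 3 KO values lay entirely above the 3 wild-type values at 2 of the 12 (12% of all tested) and entirely below them at 5 (10% of all tested), so that 7 of the 12 did not overlap (22% of all tested). The median log2 fold change, always KO minus wild-type, was −0.44 over the 12 probe sets and 0.01 over all tested. The 12 count Jun, Fosl2 and Gadd45b more than once. With each of the 8 genes read by its brightest tested probe set, the median was −0.31, and 4 genes had positive and 4 negative values. All 6 calls kept their sign under every alternative run, but 4 of the 6 had adjusted p-values between 0.03 and 0.05, and the deposited values without rescaling gave 1 higher and 0 lower. With 1 pool left out, 1, 2 and 6 probe sets passed without wild-type replicates 1, 2 and 3, and 2, 3 and 1 without KO replicates 1, 2 and 3. The 6 without wild-type replicate 3 were not the same 6. Jun at 1417409_at and Gadd45g passed there, and Jun at 1448694_at and Fosl2 at 1437247_at did not.

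**Figure D1:**
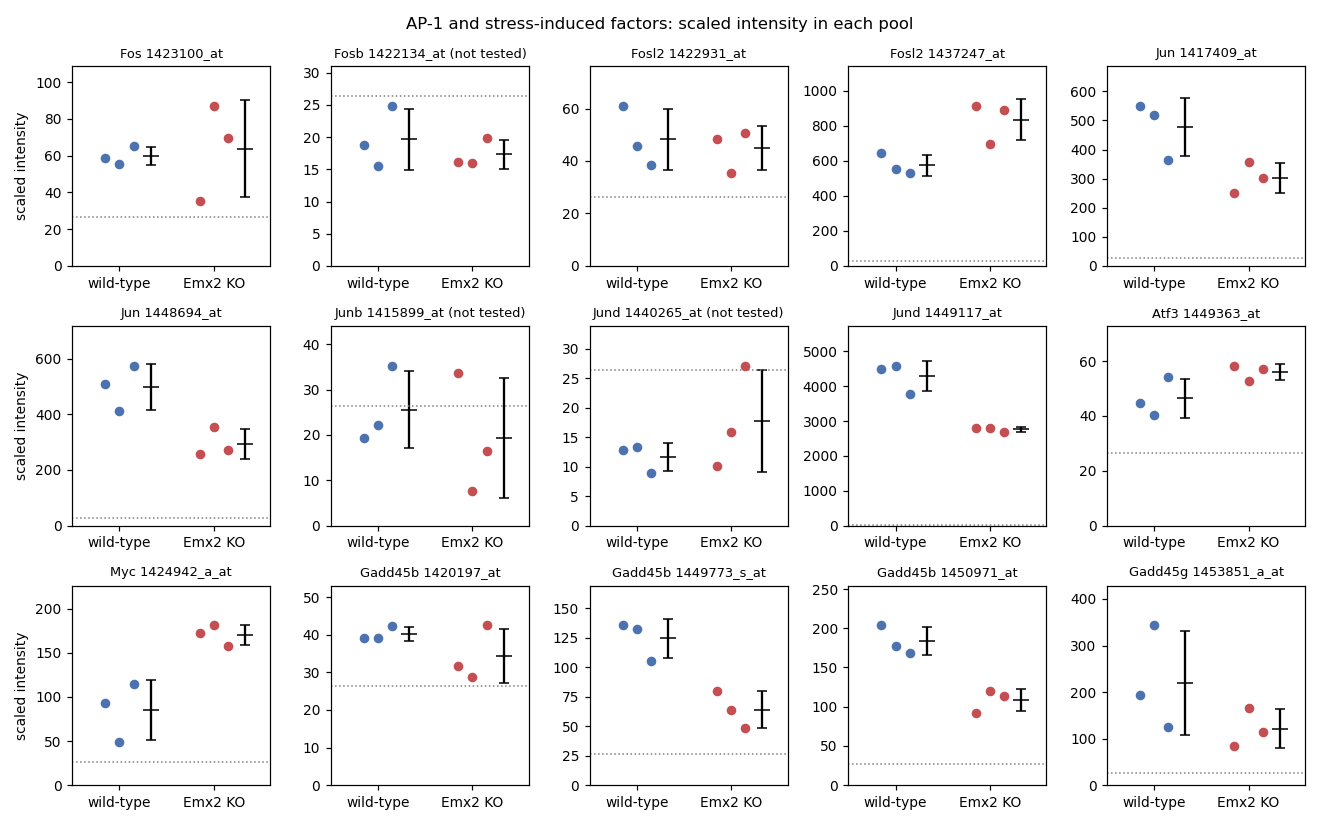
Scaled intensity (linear axis from 0, arbitrary units) of all 15 probe sets in the 3 wild-type pools (blue points) and the 3 Emx2 KO pools (red points), with the mean and SD of each group as a black bar, and the dim limit of 26.4 as a dotted line. Jund at 1449117_at shows KO pools between 2687 and 2807, all below the wild-type pools, and Myc shows KO pools between 158 and 181, all above them.

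Jund, the JUN family member usually present in resting cells, was read at 1449117_at with scaled intensities of 4481, 4584 and 3790 for the wild-type pools against 2799, 2807 and 2687 for KO. The groups did not overlap, and the KO pools lay close together. This gave mean intensities of 4285 ± 432 and 2764 ± 66.8 (SD, n = 3 per group), a log2 fold change of −0.63 with an SE of 0.09 and an adjusted p of 0.00148. This was the smallest p among the 12 tested probe sets. Jund passed in all 6 fits with 1 pool left out, with log2 fold changes from −0.71 to −0.58. It did not pass with no filter on dim probe sets (adjusted p = 0.0868), without the intensity trend (0.0625) or in unscaled values (log2 fold change −0.53, adjusted p = 0.172). A second Jund probe set, 1440265_at, read 12.8, 13.3 and 8.87 (wild-type) against 10.2, 15.9 and 27.1 (KO) and was left out as dim, so it gives no test of Jund.

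Jun, the founding member of the family and a target of JNK kinases, was read by 2 probe sets. At 1448694_at the wild-type pools read 508, 410.5 and 574, and KO read 256, 354 and 270.1. No KO pool reached the lowest wild-type pool. These values gave mean intensities of 498 ± 82.3 and 293 ± 52.7 (SD, n = 3 per group), a log2 fold change of −0.76 with an SE of 0.17 and an adjusted p of 0.0208. The other probe set, 1417409_at, read 549, 519.5 and 364 (wild-type) against 249.7, 356 and 301 (KO), where KO replicate 2 lay just below wild-type replicate 3. It had a log2 fold change of −0.65 with an SE of 0.18 and an adjusted p of 0.066 and did not pass, although its groups also did not overlap. The call at 1448694_at was lost without wild-type replicates 1 and 3 (log2 fold changes −0.74 and −0.65) and without KO replicates 1 and 3 (−0.67 and −0.71). Without wild-type replicate 3 it was 1417409_at that passed (−0.84, adjusted p = 0.0145). With both probe sets averaged, Jun fell by 0.71 on the log2 scale (SE 0.14, adjusted p = 0.0169). In the unscaled values 1448694_at had an adjusted p of 0.199, without the intensity trend 0.101 and with no filter 0.216.

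Junb, which opposes JUN at some promoters, read 19.3, 22.1 and 35.2 (wild-type) against 33.7, 7.72 and 16.5 (KO) at its only probe set. The groups overlapped, 1 KO value lay at the intensity floor of 7.99, and the probe set was left out as dim. No change of Junb was detectable at this signal.

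Fos, the prototype immediate early gene, read 58.8, 55.2 and 65.0 (wild-type) against 35.3, 86.8 and 69.3 (KO). The wild-type pools lay close together, and the KO pools spread to both sides of them, with replicate 1 lowest and replicate 2 highest of all 6. The pools had mean intensities of 59.7 ± 4.96 and 63.8 ± 26.2 (SD, n = 3 per group), a log2 fold change of 0.00 with an SE of 0.32 and an adjusted p of 0.998. The 95% interval of the log2 difference ran from −0.68 to 0.69, so these values do not exclude a change of either sign within that range. The sign of this value turned under quantile normalization and under scaling to a common median.

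Fosb, a close relative of Fos induced by the same signals, read 18.8, 15.5 and 24.8 (wild-type) against 16.2, 15.9 and 19.9 (KO). All 6 values lay under the dim limit, and the probe set was not tested.

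Fosl2, which encodes the FOS-related protein FRA-2 and is usually induced later and for longer than Fos, was read by 2 probe sets that differed. At 1437247_at the wild-type pools read 643, 552 and 529 and those of KO 911, 698 and 891, and the groups did not overlap. They had mean intensities of 575 ± 60.4 and 834 ± 118 (SD, n = 3 per group), a log2 fold change of 0.53 with an SE of 0.14 and an adjusted p of 0.0463. At 1422931_at, a dimmer probe set, the wild-type pools read 60.8, 45.5 and 38.3 and those of KO 48.5, 35.3 and 50.7, a log2 fold change of −0.10 with an SE of 0.29 and an adjusted p of 0.906. Its groups overlapped, and its 95% interval, from −0.72 to 0.52, nearly reached the value of the brighter probe set. The mean of both did not pass (0.22, SE 0.18, adjusted p = 0.593). The call at 1437247_at was lost in 5 of the 6 fits with 1 pool left out, namely without wild-type replicates 1, 2 and 3 (log2 fold changes 0.62, 0.50 and 0.47) and without KO replicates 1 and 3 (0.46 and 0.48). It was also lost under quantile normalization (adjusted p = 0.0618), scaling to a common median (0.0787), no rescaling (0.213), no filter (0.24) and no intensity trend (0.158).

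Atf3, a stress-induced partner of JUN proteins, read 44.6, 40.4 and 54.3 (wild-type) against 58.3, 52.9 and 57.1 (KO). Wild-type replicate 3 lay among the KO pools, so the groups overlapped. They had mean intensities of 46.4 ± 7.13 and 56.1 ± 2.87 (SD, n = 3 per group), a log2 fold change of 0.28 with an SE of 0.25 and an adjusted p of 0.636. The 95% interval of the difference ran from −0.26 to 0.82.

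Myc, a growth-promoting transcription factor, read 93.5, 48.4 and 114 (wild-type) against 172, 181 and 158 (KO). The KO pools were close to each other, and the wild-type pools were spread, with replicate 2 lowest. This gave mean intensities of 85.4 ± 33.7 and 170.2 ± 11.7 (SD, n = 3 per group), a log2 fold change of 1.08 with an SE of 0.28 and an adjusted p of 0.0434. The call was lost in 5 of the 6 fits with 1 pool left out. Without wild-type replicates 1 and 2 the log2 fold change was 1.19 and 0.72, and without KO replicates 1, 2 and 3 it was 1.07, 1.04 and 1.14. Without wild-type replicate 3 it was 1.34 and passed. Myc also missed the threshold under quantile normalization (adjusted p = 0.0577), with no filter (0.334) and without the intensity trend (0.144), and it was the member that passed in the unscaled values (adjusted p = 0.00608).

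Gadd45b, a stress-inducible activator of the kinase MAP3K4, was read by 3 probe sets. At 1450971_at the wild-type pools read 204, 177 and 169 against 92.3, 120.1 and 113 for KO, a log2 fold change of −0.76 with an SE of 0.19 and an adjusted p of 0.0335. At 1449773_s_at they read 135, 133 and 106 against 79.7, 64 and 48.9, a log2 fold change of −0.98 with an SE of 0.24 and an adjusted p of 0.0316. The groups did not overlap at either probe set, and the KO means were 109 ± 14.5 and 64.2 ± 15.4 against 183 ± 18.0 and 125 ± 16.4 for wild-type (SD, n = 3 per group). The suffix _s_at marks a probe set that can match more than a single transcript. The third, 1420197_at, read 39.1, 39.2 and 42.3 (wild-type) against 31.7, 28.8 and 42.5 (KO), overlapped and did not pass (−0.25, SE 0.29, adjusted p = 0.733). The mean of all 3 gave −0.66 (SE 0.18, adjusted p = 0.0691). The call at 1450971_at held only without wild-type replicate 3. It was lost without wild-type replicates 1 and 2 (log2 fold changes −0.68 and −0.78) and without KO replicates 1, 2 and 3 (−0.65, −0.84 and −0.80). The call at 1449773_s_at was lost without wild-type replicates 1 and 2 (−0.91 and −0.93) and KO replicates 2 and 3 (−0.99 and −0.79). Neither passed with no filter (adjusted p = 0.133 and 0.198), without the intensity trend (0.0604 and 0.0724) or in unscaled values (0.302 and 0.129).

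Gadd45g, the family member that acts upstream of Sry in the gonad, read 193, 343 and 124 (wild-type) against 83.6, 166 and 114 (KO). Replicate 2 was the highest of each group, and KO replicate 2 lay above wild-type replicate 3. This gave mean intensities of 220.1 ± 112 and 121 ± 41.5 (SD, n = 3 per group), a log2 fold change of −0.79 with an SE of 0.33 and an adjusted p of 0.229, which did not pass. With 1 pool left out the log2 fold change ranged from −1.14 without wild-type replicate 3 (adjusted p = 0.0431), the only such fit in which it passed, to −0.41 without wild-type replicate 2 (adjusted p = 0.547). It was −0.56 without KO replicate 1 (adjusted p = 0.525).

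**Figure D2:**
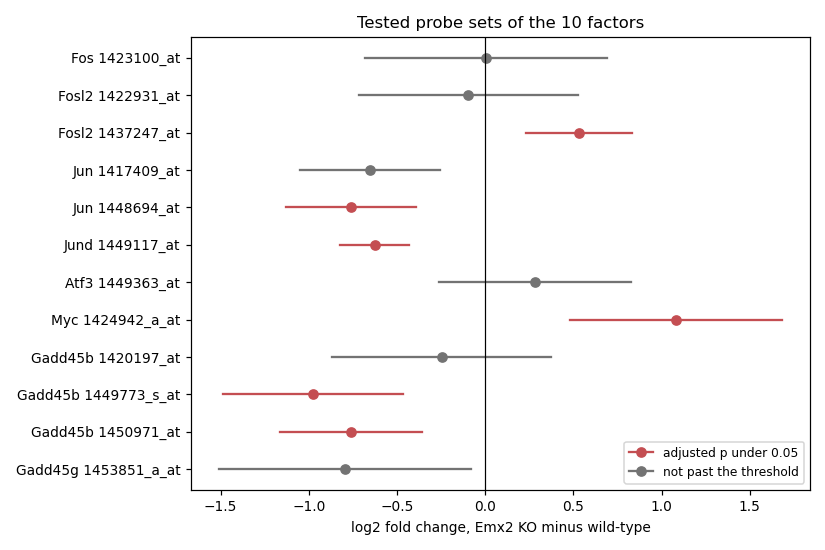
Log2 fold change (KO minus wild-type) of the 12 tested probe sets, with 95% confidence intervals from limma's moderated variance before adjustment for multiple tests; red marks an adjusted p under 0.05. Jund, Jun and Gadd45b lie left of 0 and Myc and Fosl2 at 1437247_at right of it, while Fos is centred on 0 with an interval from −0.68 to 0.69.

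No single pool was the extreme at most of these probe sets. Among the 15 probe sets, wild-type replicates 1, 2 and 3 held the highest value of all 6 pools at 4, 2 and 3, and each KO replicate at 2. KO replicate 1 held the lowest value at 5. The patterns nearest to the 3 genes of smallest p were sought among all other named genes, by the root mean square difference between log2 values centred on their own mean over the 6 arrays. For Jund these were Nt5c3b (0.04 log2 units), Hdhd3 (0.06) and Bcam (0.06). For Jun at 1448694_at they were Hoxb5os (0.10), Nup54 (0.12) and Smim5 (0.12). For Gadd45b at 1449773_s_at they were Mynn (0.13), Mapkapk3 (0.14) and Zfp800 (0.15). These genes were picked for their likeness to a member, so fold changes like that member's follow from the choice. Nt5c3b, Hoxb5os and Mynn passed the test, with log2 fold changes of −0.57, −0.76 and −0.93, and the other neighbours did not.

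RefSeq promoter windows of 300 bases (build GRCm38.p6), from 250 before the annotated start to 50 after it, were matched by symbol for 9 of the 10 genes, all but Myc. Those of Jun, Jund and Gadd45b, which were called lower, and of Fosl2, called higher at 1437247_at, are shown because they are the called genes with a window. Capitals mark matches, on either strand, to the AP-1 site TGANTCA, the CRE TGACGTCA, its looser form TGACNTCA and half-site TGACG, the E-box CACGTG bound by MYC and MAX, the TATA box TATAAA and the CArG box of SRF. TGACNTCA and TGACG were added after the windows had been seen, and TGACGTCA contains both.
Jun, chr4:95052173-95052472, - strand: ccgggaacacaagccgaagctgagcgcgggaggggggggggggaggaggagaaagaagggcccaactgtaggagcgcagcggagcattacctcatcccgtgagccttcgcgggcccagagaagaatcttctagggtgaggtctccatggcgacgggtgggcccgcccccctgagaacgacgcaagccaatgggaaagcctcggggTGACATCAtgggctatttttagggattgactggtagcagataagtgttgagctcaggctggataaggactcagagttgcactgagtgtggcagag
Jund, chr8:70697489-70697788, + strand: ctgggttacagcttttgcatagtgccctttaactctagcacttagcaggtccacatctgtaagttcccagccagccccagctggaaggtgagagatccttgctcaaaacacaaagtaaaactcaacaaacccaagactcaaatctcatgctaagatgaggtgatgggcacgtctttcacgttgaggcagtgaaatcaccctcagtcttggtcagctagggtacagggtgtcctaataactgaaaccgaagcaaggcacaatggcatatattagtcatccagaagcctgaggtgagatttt
Gadd45b, chr10:80929841-80930140, + strand: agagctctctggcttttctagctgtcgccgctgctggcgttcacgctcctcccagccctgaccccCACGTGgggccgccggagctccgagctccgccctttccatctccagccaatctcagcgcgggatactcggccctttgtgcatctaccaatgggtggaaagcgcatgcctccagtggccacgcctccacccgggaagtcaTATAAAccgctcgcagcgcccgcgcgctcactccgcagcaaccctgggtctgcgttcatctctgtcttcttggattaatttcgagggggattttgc
Fosl2, chr5:32136222-32136521, + strand: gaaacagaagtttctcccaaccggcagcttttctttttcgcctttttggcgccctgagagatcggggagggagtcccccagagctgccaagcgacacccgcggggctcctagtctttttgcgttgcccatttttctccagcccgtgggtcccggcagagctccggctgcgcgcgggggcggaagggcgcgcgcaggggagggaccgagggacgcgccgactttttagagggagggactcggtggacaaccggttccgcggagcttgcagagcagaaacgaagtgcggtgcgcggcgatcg
The Jun window holds TGACATCA, a match to TGACNTCA, which 8.83% of all 32851 windows hold. The Gadd45b window holds CACGTG (7.15% of all windows) and TATAAA (13.6%), and so does that of Gadd45g, while the windows of Fos and Junb hold TATAAA alone of these 2. Neither the Jund nor the Fosl2 window holds any of these motifs. TGANTCA (7.81% of all windows), TGACGTCA (1.79%) and the CArG box (1.63%) were in none of the 9, while TGACG (20.8%) was in 4, those of Fos, Fosb, Junb and Atf3. These matches describe letters in the windows and were not tested for use.

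Among other bZIP partners of AP-1, 1 of 10 tested genes fell and 0 rose. By the brightest probe set, 5.41% of all 12315 named genes passed, 2.93% higher and 2.48% lower, and their median log2 fold change was −0.01. The list median was 0.03. Maf, a large MAF protein that binds DNA alone or with AP-1 proteins, fell (873 ± 118 against 494 ± 51.4 in KO, SD, n = 3; −0.82, SE 0.14, adjusted p = 0.00369), and 2 of its 5 tested probe sets passed, with values from −0.94 to −0.56 over the 5. Maf lost its call in unscaled values and with no filter. Batf3, next by p, did not pass (0.57, SE 0.19, adjusted p = 0.12).

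Other immediate early genes went both ways. Of 29 tested, 3 rose, 1 fell and 25 did not pass, with a list median of 0.20. Klf6, a zinc finger factor, rose (262 ± 13.8 against 434 ± 45.4 in KO; 0.72, SE 0.14, adjusted p = 0.0106) at 1 of its 5 tested probe sets, the others giving values down to −0.25. Ccn2, a secreted matrix-associated protein, rose (0.64, SE 0.14, adjusted p = 0.0206), and Dusp6, a phosphatase that switches off ERK, rose too (0.64, SE 0.14, adjusted p = 0.0198). Btg1, an antiproliferative gene, fell (−0.53, SE 0.10, adjusted p = 0.00992), and all 3 of its probe sets passed. Klf6 was lost without KO replicates 2 and 3 (both 0.68) and Btg1 without KO replicate 2 (−0.46). Dusp6 was lost without wild-type replicates 1 and 2 (0.66 and 0.49) and KO replicates 2 and 3 (0.64 and 0.57). Ccn2 was lost without wild-type replicates 1 and 2 (0.60 and 0.59) and KO replicates 1, 2 and 3 (0.66, 0.68 and 0.58). All 4 were lost in unscaled values and with no filter, and Dusp6, Btg1 and Ccn2 also without the intensity trend.

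Of 17 tested MAP kinases and SRF factors, which carry signals to AP-1 promoters and proteins, 1 fell and 0 rose (list median 0.01). Map3k1, a kinase that acts upstream of JNK, went from 411 ± 9.56 to 188 ± 36.7, a log2 fold change of −1.14 with an SE of 0.16 and an adjusted p of 0.00137. Its second probe set fell as well (−1.09, adjusted p = 0.00586). Map3k1 passed in all 6 fits with 1 pool left out and lost its call with no filter. Elk3, a partner of SRF, did not pass (0.60, SE 0.16, adjusted p = 0.0565). Of 9 tested genes known as AP-1 targets, Egfr, the EGF receptor, rose (4.32, SE 0.23, adjusted p = 6.22e-07) and 0 fell, with a list median of 0.22. Egfr passed at 3 of its 4 tested probe sets, with values from 0.92, which did not pass (adjusted p = 0.0785), to 4.32 over the 4. The probe set with 4.16, which passed, averaged 16.5 ± 1.14 in wild-type pools, under the dim limit of 26.4. It averaged 296 ± 23.8 in KO pools (SD, n = 3 per group), so it was tested only through its KO values. At the probe set with 4.32, Egfr passed in all 6 fits with 1 pool left out. Ccnd1, a G1 cyclin, did not pass (0.42, SE 0.14, adjusted p = 0.141).

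Around MYC, 1 of 12 tested family and MAX network genes fell and 0 rose (list median −0.22). Mycn, the MYC relative of embryonic progenitors, went from 1245 ± 76.2 to 779 ± 75.3 (−0.68, SE 0.11, adjusted p = 0.00374), opposite in sign to Myc, and passed in all 6 fits with 1 pool left out, but not in unscaled values, with no filter or without the intensity trend. Zbtb17, the MYC partner MIZ1, did not pass (−0.40, SE 0.16, adjusted p = 0.202). Of 15 tested genes known as MYC targets 0 passed limma's test in either direction (list median −0.04). Of these, 1 had an unadjusted limma p under 0.05, against 17.3% of all probe sets tested. That was Ncl, encoding nucleolin (0.31, SE 0.09, adjusted p = 0.0913), and Ddx18 followed by p (−0.16, SE 0.10, adjusted p = 0.462).

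No call fell in the lists of GADD45 relatives and partners, stress response genes or heat shock genes. Over all named genes 5.41% passed, so lists of this size would hold few calls at that share. Of 8 tested GADD45 relatives and partners, 14 genes of the integrated stress response and 11 heat shock genes, 0 passed limma's test. Unadjusted limma p-values under 0.05 were held by 2, 1 and 1 of them, and by 17.3% of all probe sets tested. The list medians were −0.05, 0.09 and −0.11, with positive values at 3, 9 and 0 genes and negative values at 5, 5 and 11. Mdm2, the ubiquitin ligase of p53 (0.44, SE 0.17, adjusted p = 0.196) and Map3k4, the kinase that GADD45 proteins activate (0.20, SE 0.09, adjusted p = 0.269), had the smallest p among the first. Sesn2, a stress-induced sestrin (−0.58, SE 0.19, adjusted p = 0.119) and Asns, asparagine synthetase (−0.28, SE 0.13, adjusted p = 0.31), had the smallest p in the stress response list. Among heat shock genes these were the chaperone genes Hspb8 (−0.62, SE 0.18, adjusted p = 0.0724) and Hsph1 (−0.18, SE 0.08, adjusted p = 0.294).

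**Figure D3:**
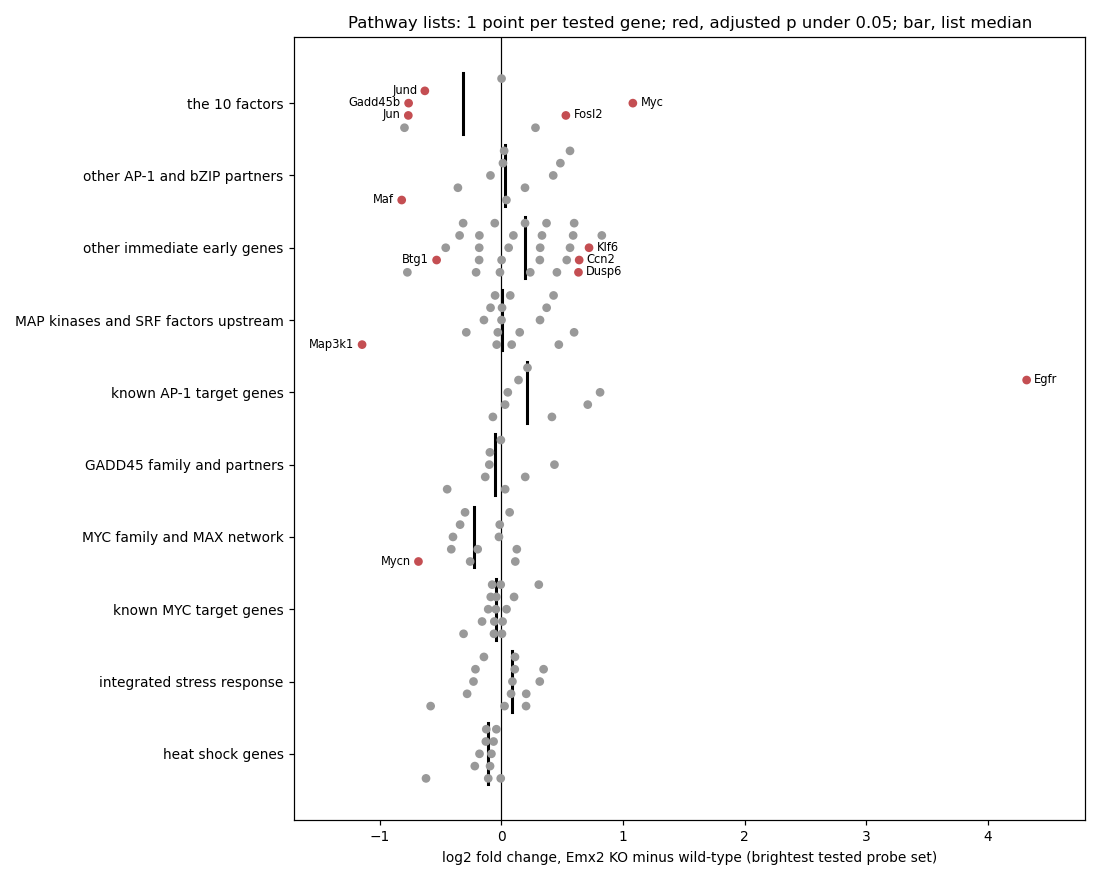
Log2 fold change (KO minus wild-type) of every tested gene of the 10 factors and 9 related lists, each gene by its brightest tested probe set; red points passed an adjusted p of 0.05 and black bars are list medians. Points within a row are spread vertically only for legibility, and Egfr at 4.32 lies far to the right of all others.

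The pools differed in more than these genes. The arrays had deposited medians from 40.6 to 63.6 and were scaled by factors from 0.829 to 1.22. At its only probe set, Emx2 itself gave 1302, 2120.4 and 1727 (wild-type) and 1678, 1479.6 and 1746 (KO) and did not pass (−0.05, SE 0.15, adjusted p = 0.916). The sources used here do not say where that probe set lies relative to the deleted part, so it does not check the labels. Xist read from 13.3 to 69.9 in wild-type and from 9321 to 9888 in KO pools at 1436936_s_at, and all 3 tested Y-linked genes were lower in KO. None of the 10 factors lies on X or Y in the RefSeq table. Of 9 tested epithelial and gonadal markers, 1 rose (Krt19) and 2 fell (Nr5a1 and Krt8), with summed levels of 18255 to 20666 in wild-type and 16241 to 18192 in KO pools, while Msln was too dim to test. Gata4 lay higher in every KO pool (0.62, adjusted p = 0.0501) and Wt1 lower in every KO pool (−0.40, adjusted p = 0.0715), and neither passed limma's test.

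Markers of neighbouring cell types moved with genotype as well. Of 8 mesenchyme markers 5 rose (Twist1, Postn, Pdgfrb, Prrx1 and Col3a1), with summed levels of 10212 to 10809 in wild-type and 14446 to 14897 in KO pools. Of the other mesenchyme markers, Foxf1 (−0.77, adjusted p = 0.161) lay lower in every KO pool and Pdgfra (−0.11, adjusted p = 0.617) overlapped, both with negative values, and Col1a1 did not pass (adjusted p = 0.0549). Of 6 tested endothelium markers 4 rose (Emcn, Tek, Cldn5 and Egfl7), with sums of 767 to 993 and 1304 to 1560, and Pecam1 and Tie1 were too dim to test. Emcn was under the dim limit of 26.4 in all 3 wild-type pools, so it was tested only through its KO values, and its call was lost with a floor at the 40th percentile. Of 6 macrophage markers Csf1r rose, at 1 of its 3 tested probe sets (values from −0.37 to 1.03), with list sums of 294 to 462 and 530 to 643. Cd68 had a negative value without overlap and did not pass (−0.50, adjusted p = 0.362). Of 5 tested germ cell markers 2 fell (Dnd1 and Dppa3), with sums of 518 to 621 and 332 to 412, and of 3 tested nephric duct markers 2 fell (Lhx1 and Pax8), with sums of 198 to 216 and 57.7 to 105. Lhx1 was under the dim limit in all 3 KO pools, so it was tested only through its wild-type values. Of 4 tested erythroid markers 0 passed limma's test, with sums of 35258 to 36988 and 35391 to 36791. Of these, 1 had an unadjusted limma p under 0.05 (17.3% of all probe sets tested). The calls of Prrx1, Col3a1, Emcn, Egfl7, Cldn5, Csf1r, Dnd1, Dppa3, Lhx1 and Pax8 were each lost without at least 1 pool, that of Dnd1 in all 6 such fits, and those of the other markers named held in all 6. With no filter, Twist1 and Pdgfrb alone of the markers named in these lists passed. In unscaled values Krt8, Col3a1, Egfl7, Dppa3 and Dnd1 were lost. Without the intensity trend Krt8, Prrx1, Col3a1, Emcn, Egfl7, Cldn5, Csf1r, Dppa3 and Pax8 were lost. The part of these cell types in the changes of Jun, Jund, Gadd45b, Fosl2 and Myc was not tested. In such pools, fewer cells of a type and less RNA per cell cannot be told apart.

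**Figure D4:**
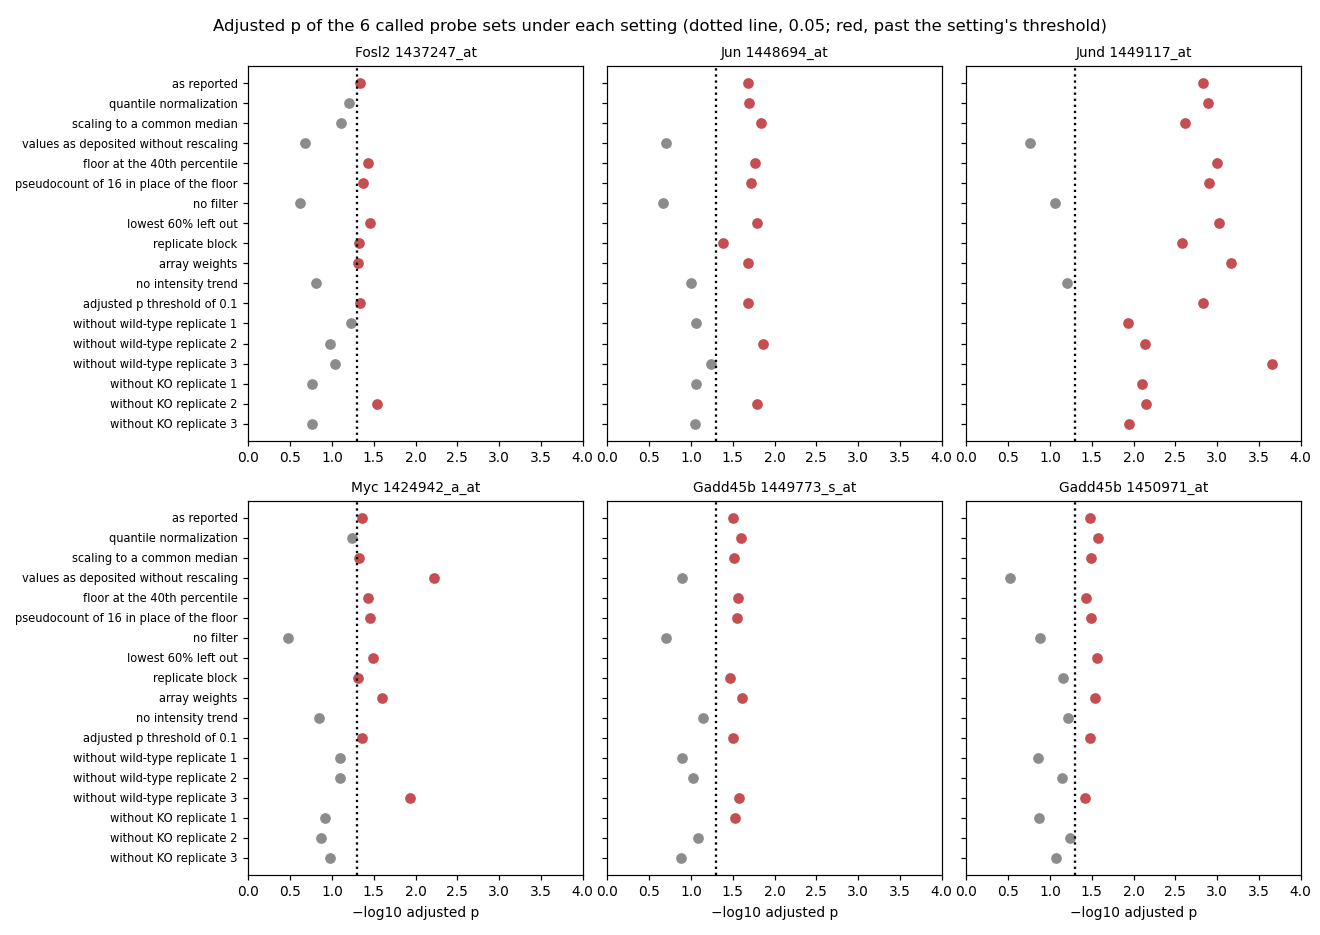
Adjusted p, as −log10, of the 6 called probe sets under the reported setting and each alternative; the dotted line marks 0.05 and red points passed the threshold of their setting. Jund stays right of the line with any pool left out, whereas Fosl2, Jun, Myc and Gadd45b cross it when particular pools are removed, and none of the 6 passes with no filter or without the intensity trend.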

How the data were processed

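The 6 arrays (1-channel, biotin label) carried amplified RNA, 15 ng of total RNA per pool, from epithelium cut from 30 µm sections, per the labels' protocols. Per probe set and array, the authors deposited 1 linear intensity, which was the starting point. The submitters' processing notes name GCOS 1.2, without an algorithm or scaling target in the sources used here. Each array was scaled to a common 2% trimmed mean (309), values under the 20th percentile (7.99) were raised to it, and values were put on a log2 scale. All 64 control probe sets and the 40% with the lowest mean log2 value (below 26.4 as an intensity, the dim limit) were left out. Amplification copies the 3' end best, so distant probe sets can read low. No detection calls were used, and with 3 arrays a group their number limits the precision.

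Groups were compared by the moderated test of limma 3.58.1 under R 4.3.3 (eBayes, trend on), two-sided, and Benjamini-Hochberg adjustment covered all 27022 probe sets that remained. Means and SDs are of scaled intensities. On simulated arrays of 27022 probe sets, 52 of 100 changes of 2-fold and 83 of 100 of 4-fold were recovered, with 10 false calls. Smaller changes, such as those of Jund, Jun and Fosl2, were not simulated. Recovery also depends on the share of probe sets that change, which was set in the simulation and is not known for the data. Symbols came from the platform annotation, and all 15 probe sets matched a RefSeq gene with unchanged symbol. The 10 genes and all lists were chosen with earlier results of these data known, so no list was tested as a set. Every probe set of the 10 genes is named; from each related list, at most 4 called genes ranked by fold change, or the 2 of smallest p where fewer were called; and the 3 genes nearest in pattern to each of the 3 members of smallest p. A list's gene was read by its brightest tested probe set. Motifs were searched as text. Alternatives varied normalization, floor, filter, block, weights, trend, threshold, probe set choice and pools.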

Additional observations from a re-analysis of the deposited data

How the results depend on the processing

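The count of called probe sets among the 12 tested was 6 as reported. Under the stricter filter 7 were tested and 5 called, and Gadd45b at 1449773_s_at was not tested, nor were the markers Emcn, Tek, Dnd1, Lhx1 and Pax8. The count was 4 to 7 of 12 under quantile normalization, a common median, both other treatments of low values, the replicate block, array weights and a threshold of 0.1. It was 1 in values as deposited (1 higher, 0 lower), and 0 in either direction with no filter (15 tested) and without the intensity trend. In each of these last settings limma gave 7 unadjusted p-values under 0.05 among the member probe sets. Over all probe sets tested that share was 17.3% as reported, and it is not given for these settings. The number higher, 2 as reported, was 0 under quantile normalization and 1 with a common median. With 1 pool left out the total ranged from 1 to 6, the higher count from 0 to 1 and the lower count from 1 to 5. Over all probe sets, 1264 calls became 151 with no filter, 541 without the trend, 1939 at a threshold of 0.1, and 721 to 1682 with 1 pool left out. The related lists, 8 called genes as reported, gave 2 in values as deposited, 1 with no filter, 5 without the trend, 16 at a threshold of 0.1 and 4 to 12 with 1 pool left out. No filter tests 45037 probe sets in place of 27022. The cause of these changes was not tested. Rescaling moved the median log2 fold change of all probe sets from 0.10 to 0.01. Fos, 0.00 as reported, turned sign under quantile normalization (−0.030) and a common median (−0.026) and ranged from −0.27 to 0.38 with 1 pool left out, and Fosl2 at 1422931_at from −0.25 to 0.084. No other member changed sign. Equal replicate numbers did not pair the pools, since their deviations correlated at −0.07, 0.04 and −0.05, and not every pool correlated best with its own number. The replicate block gave 5 called member probe sets and 1160 over all probe sets, and the member lost was Gadd45b at 1450971_at (adjusted p = 0.0691). The markers Dnd1 and Egfl7 were lost under it too.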

Other observations

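Some bZIP partners and immediate early genes outside the 10 genes were too dim to be tested. The values of Fosl1 and Egr3, chosen after they were seen, are given without a test. Fosl1, which encodes the FOS-related protein FRA-1, averaged 11.3 ± 2.96 in wild-type and 27.5 ± 6.59 in KO pools at its brighter probe set, where the groups did not overlap. Egr3, an immediate early zinc finger gene, averaged 31.1 ± 6.5 in wild-type and 21.8 ± 2.79 in KO pools at its brighter probe set, without overlap. Groups did not overlap at 22% of all probe sets tested. Of the other genes too dim to test in these lists, Nrl did not overlap, and Batf, Batf2, Egr2, Nr4a3 and Arc overlapped. The immediate early nuclear receptor genes Nr4a1 and Nr4a2 were tested. Nr4a1 was just outside limma's threshold with a negative log2 fold change (−0.77, SE 0.21, adjusted p = 0.0526) and Nr4a2 with a positive one (0.59, SE 0.16, adjusted p = 0.0562).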
